A study of Mus musculus with 12 samples.

Results

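The genes described here encode the proteins that hold epithelial cells together: claudins, cadherins, connexins, desmosome proteins and the scaffold and membrane proteins of tight junctions. They were chosen by gene symbol, and the symbols took 86 of the 54532 genes in the count table: 23 cadherins, 21 claudins, 19 connexins, 15 desmosome genes and 8 tight junction scaffold and membrane genes. The measurement was RNA-seq of whole kidneys from 12 C57BL/6 J mice, 18 days old, in 4 groups of 3. All 12 mice carried the *Pkd1* RC allele, which changes an arginine of polycystin-1 to a cysteine and leaves the protein partly functional. The noncystic mice (*Pkd1* RC/+) had a floxed second *Pkd1* allele and no Cre. The cystic mice (*Pkd1* RC/-) had the same floxed allele and Ksp-Cre, which deletes it in kidney tubule cells. Within each kind, mice were either *Pkd2* +/+ (mice 19, 20 and 21 noncystic; mice 25, 26 and 27 cystic) or *Pkd2* Δ17/Δ17 (mice 22, 23 and 24 noncystic; mice 28, 29 and 30 cystic). Δ17 is a CRISPR deletion of the miR-17 binding motif in the *Pkd2* 3′-UTR. Every cystic mouse carried Cre and no noncystic mouse did, so the effects of Cre and of cystic disease cannot be told apart. The Ksp promoter is that of *Cdh16*, kidney-specific cadherin, which is itself among the genes described.

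In an epithelium, tight junctions seal the space between neighbouring cells, and the claudins in them decide which ions and how much water pass between the cells. Some claudins form pores and others form barriers, and each nephron segment has its own set: leaky, pore-forming claudins in the proximal tubule and tighter combinations in the collecting duct. Below the tight junction, cadherins join the cells through their extracellular domains and hold the actin cytoskeleton through catenins. Desmosomes anchor keratin filaments, and connexins form the gap junction channels that let small molecules move from cell to cell.

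Total counts ran from 18800307 to 24453033 per mouse, and the 86 genes took between 0.459% and 0.633% of them. All 9 proximal tubule markers and all 5 thick ascending limb markers had counts in every mouse. *Pkd2*, the gene whose motif was deleted, was at 194 to 219 CPM (read counts scaled by library size) in noncystic *Pkd2* +/+ mice and 271 to 286 in noncystic *Pkd2* Δ17/Δ17 mice, and at 213 to 233 and 307 to 337 in the cystic pair of groups. The ranges of both *Pkd2* genotypes were separate, with a log2 fold change of 0.53 (SE 0.08, adjusted p = 0.00249) in cystic and 0.41 (SE 0.08, adjusted p = 0.771) in noncystic kidneys. *Pkd1* counts, which cover the whole gene and do not resolve a deleted exon, had a log2 fold change of 0.26 (SE 0.11, adjusted p = 0.0775) between cystic and noncystic *Pkd2* +/+ kidneys. Kidneys from mice 30 and 27 stood apart in 4 adrenal gland markers, which summed to 308 and 45.1 CPM there and to between 3.69 and 7.09 CPM in the other 10. All CPM values below use library sizes scaled by TMM, edgeR's trimmed mean of M values. Of the 86 genes, 71 passed the filter on low counts (a mean log2CPM at or above -3) and 15 did not. Each of the 15 had at most 8 counts over all 12 mice, and *Cldn13*, *Cldn22*, *Gja10*, *Cdh12* and *Dsg1a* had none.

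Cystic and noncystic *Pkd2* +/+ kidneys were compared first, to ask which junction genes differ in polycystic disease. In cystic kidneys *Cldn3*, *Cldn4*, *Cldn6* and *Cldn7* rose by 2.32-fold to 5.15-fold, while the pore-forming *Cldn2*, *Cldn10* and *Cldn15* fell by 1.98-fold to 2.51-fold. P-cadherin rose 5.52-fold and E-cadherin 1.71-fold, and 6 of the 10 desmosome genes tested rose. In the quasi-likelihood test of edgeR, adjusted by Benjamini-Hochberg over all 24642 genes tested, 37 of the 71 genes (52.1%) passed an adjusted p of 0.05. Of these, 28 were higher and 9 lower in cystic kidneys. Over all genes tested, 31.1% passed, 16.9% higher and 14.2% lower. The median log2 fold change was 0.24 for the 71 genes and 0.02 for all genes. Of the 37, 27 changed by at least 1.5-fold and 19 by at least 2-fold. Over all genes 7665 passed, of which 4693 changed by at least 1.5-fold and 2629 by at least 2-fold. For 44 of the 71 genes the ranges of cystic and noncystic mice were separate, as they were for 41.7% of all genes tested. Highly expressed genes pass more often: of the 48 junction genes whose mean log2CPM was 1 or more, 33 (68.8%) passed, against 48.7% of all genes at that level. In whole kidney RNA, fewer cells of a type and less RNA per cell cannot be told apart.

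Of the 17 claudins tested, 7 rose and 4 fell (64.7% passed, against 31.1% of all genes). *Cldn3*, which tightens the junction, was at 26.9, 22.4 and 23.6 CPM in the noncystic mice and at 76.3, 91.7 and 99.9 CPM in the cystic mice. *Cldn4*, a claudin of the collecting duct, was at 87.5, 114.8 and 105.4 CPM and at 281.8, 401.3 and 351.9 CPM. For both genes every cystic mouse lay above every noncystic mouse, by 3.68-fold for *Cldn3* (log2 fold change 1.88, SE 0.11, adjusted p = 1.18e-08) and 3.36-fold for *Cldn4* (1.75, SE 0.16, adjusted p = 3.47e-07). *Cldn7*, found in the distal nephron and collecting duct, rose 2.32-fold from 50.3 to 66.0 CPM in noncystic mice to between 124.0 and 141.8 CPM in cystic mice (adjusted p = 1.38e-07). *Cldn6*, a claudin of embryonic epithelia, rose 5.15-fold from 9.92 to 14.9 CPM to between 56.1 and 84.8 CPM (log2 fold change 2.36, SE 0.19, adjusted p = 1.49e-07). Its close relative *Cldn9* stayed low in level but rose 4.13-fold, from 0.560 to 0.935 CPM to between 2.21 and 4.05 CPM (adjusted p = 4.97e-05). *Cldn14*, a claudin of the thick ascending limb that limits calcium uptake, had 2, 3 and 5 counts in the noncystic mice and 20, 18 and 18 in the cystic mice, a log2 fold change of 2.20 (SE 0.56, adjusted p = 0.00596). *Cldn23* had a log2 fold change of 1.18 (SE 0.35, adjusted p = 0.015), with cystic mice only just clear of noncystic mice, at 2.59 CPM or more against 2.57 CPM or less. That call was lost without mouse 19 (adjusted p = 0.078), mouse 21 (0.0692) or mouse 26 (0.0821).

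The claudins that fell were *Cldn2*, *Cldn10*, *Cldn15* and *Cldn5*. *Cldn2*, which forms the cation and water pore of the proximal tubule, was at 588.0, 517.3 and 753.5 CPM in noncystic mice and at 367.0, 262.5 and 307.8 CPM in cystic mice, a 1.98-fold fall (log2 fold change -0.99, SE 0.14, adjusted p = 3.73e-05). *Cldn10*, whose isoforms form an anion pore in the proximal tubule and a sodium pore in the thick ascending limb, was at 229.1, 231.0 and 202.8 CPM and at 80.5, 100.8 and 83.2 CPM. Every cystic mouse lay below every noncystic mouse for both genes, and *Cldn10* fell 2.51-fold (log2 fold change -1.33, SE 0.10, adjusted p = 7.67e-08). The counts are per gene and do not separate the isoforms of *Cldn10*. *Cldn15*, a sodium pore best known from the intestine, fell 2.16-fold (log2 fold change -1.11, SE 0.14, adjusted p = 1.11e-05), and *Cldn5*, the main claudin of endothelium, fell 1.34-fold (log2 fold change -0.43, SE 0.10, adjusted p = 0.00351). Beside these, all 9 proximal tubule markers fell (median log2 fold change -1.24), their sum going from between 7690 and 9530 CPM to between 2920 and 4080 CPM. Of the 5 thick ascending limb markers 4 fell, with sums of 4480 to 5310 and 1930 to 2560 CPM, including *Slc12a1* (-0.97) and *Egf* (-3.06), while *Umod* had a log2 fold change of -0.10 (adjusted p = 0.689). Of the 8 endothelial markers 6 fell and none rose, with sums of 748 to 839 and 483 to 537 CPM. The part of these cell types in the claudin differences was not tested.

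Several claudins with high levels did not pass the test. *Cldn8*, a collecting duct claudin that works with *Cldn4*, was at 182.3 to 209.3 CPM in noncystic and 206.1 to 234.9 CPM in cystic mice (log2 fold change 0.13, SE 0.08, adjusted p = 0.281). It passed as higher when libraries were scaled by their totals (0.28, adjusted p = 0.00985). *Cldn1* had a log2 fold change of 0.10 (SE 0.11) and *Cldn12* of 0.09 (SE 0.07). Of the 6 principal cell markers of the collecting duct 2 rose and none fell. Their sums were 1100 to 1250 CPM in noncystic mice and 3270, 1810 and 1680 CPM in cystic mice 25, 26 and 27. Other distal markers went otherwise: all 4 of the distal convoluted tubule fell (median log2 fold change -1.75), and of 5 intercalated cell markers 2 fell and 1 rose. The part of these cell types in the claudin levels was not tested.

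**Figure D1:**
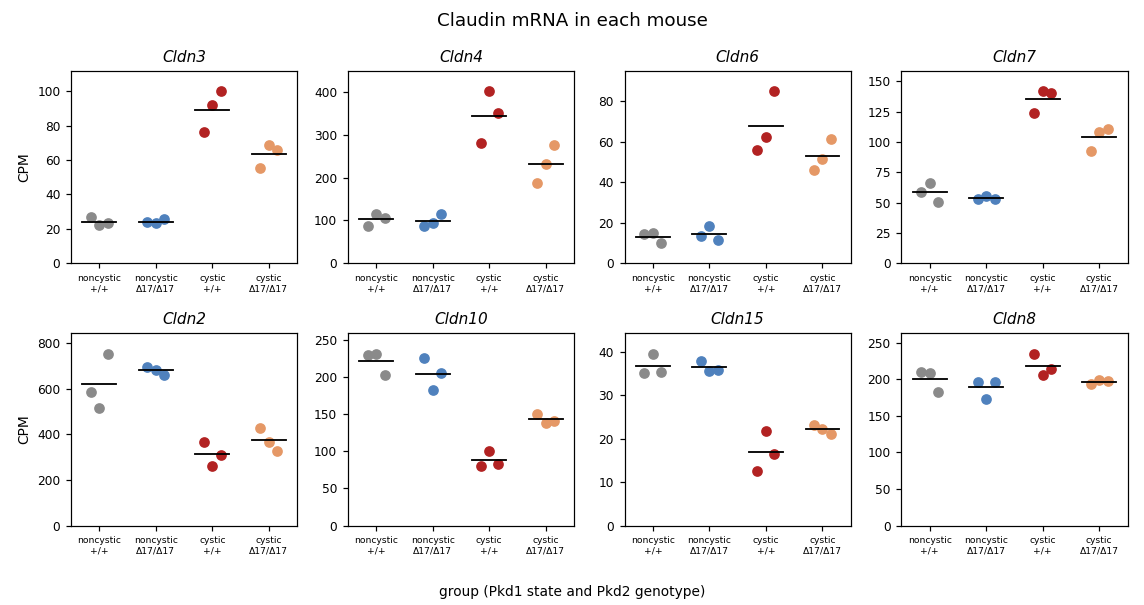
CPM (linear axis from 0) of 8 claudins in each of the 12 mice, by group; each point is a mouse and each bar the mean of 3. In cystic *Pkd2* +/+ mice *Cldn3*, *Cldn4*, *Cldn6* and *Cldn7* lie above, and *Cldn2*, *Cldn10* and *Cldn15* below, all noncystic mice, while *Cldn8* overlaps.

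Levels of different genes were set side by side as CPM per kb of exon, and each gene's share of its family's sum was computed. The summed level of the 21 claudins was 558.2 ± 12 CPM per kb (SD, n = 3) in noncystic and 662.0 ± 36.9 in cystic *Pkd2* +/+ mice. In noncystic mice *Cldn2* led with 33.3% ± 5.88 of that sum, followed by *Cldn10* with 15.3% ± 1.39 and *Cldn8* with 15.2% ± 1.47. *Cldn10* and *Cldn8* did not differ beyond their spread. In cystic mice *Cldn4* led with 28.6% ± 3.61, up from 10.1% ± 1.3. *Cldn2* and *Cldn8* followed in cystic mice with 14.3% ± 3.21 and 14.1% ± 1.78, which did not differ beyond their spread. *Cldn3* went from 3.46% to 10.7%, *Cldn7* from 5.38% to 10.5% and *Cldn6* from 1.37% to 5.93%, while *Cldn10* went from 15.3% to 5.13%. A ratio of genes within a mouse does not depend on library scaling: the level of *Cldn4* was 0.256 to 0.406 times that of *Cldn2* in the noncystic mice and 1.41 to 2.80 times in the cystic mice. The ratio of *Cldn10* to *Cldn2* overlapped between the groups, at 0.345 to 0.573 and 0.281 to 0.493. These pairs were chosen after their values were seen and were not tested.

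**Figure D2:**
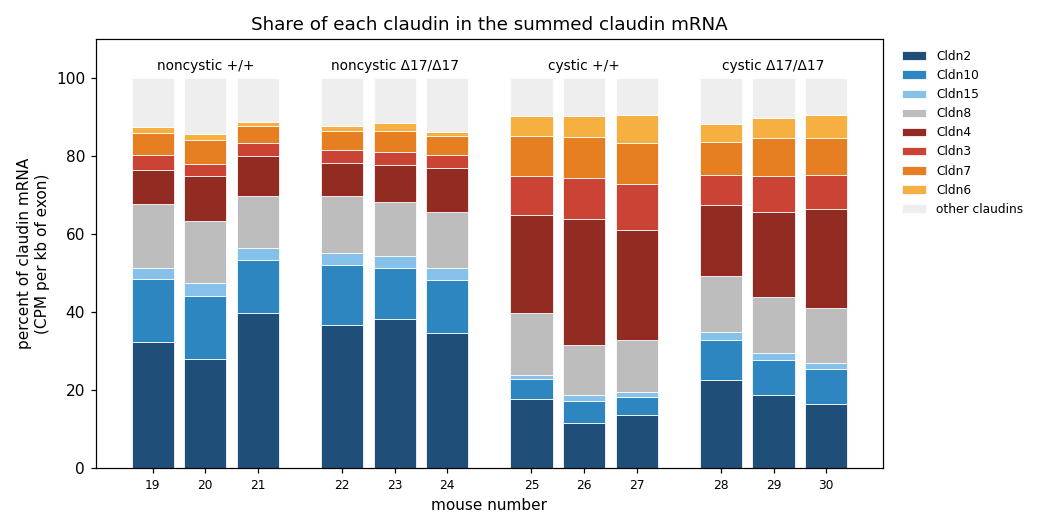
Percent of the summed claudin level (CPM per kb of exon) held by each of 8 claudins and by the other claudins, as stacked bars, 1 bar per mouse. *Cldn2* and *Cldn10* (blue) shrink from 33.3% and 15.3% in noncystic to 14.3% and 5.13% in cystic *Pkd2* +/+ mice, *Cldn4* grows from 10.1% to 28.6%, and the means of cystic *Pkd2* Δ17/Δ17 mice lie between (9.42% for *Cldn10*, 21.7% for *Cldn4*).

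Several of these genes are neighbours in the genome (coordinates of GRCm38, GENCODE M21). *Cldn3* (chr5:134986214-134987472) and *Cldn4* (chr5:134945119-134946934) are 39.3 kb apart and both rose. *Cldn6* and *Cldn9* lie 0.138 kb apart on opposite strands of chromosome 17 and both rose. *Cdh3* and *Cdh1* are neighbours 46.1 kb apart on chromosome 8 and both rose. On chromosome 14, the connexins *Gja3*, *Gjb2* and *Gjb6* follow one another with gaps of 40.5 and 18.6 kb and had log2 fold changes of -0.98, -0.76 and -1.04, of which that of *Gjb6* did not pass (adjusted p = 0.0522). *Ocln* and *Marveld2*, 43.2 kb apart on chromosome 13, had log2 fold changes of 0.02 and 0.45. These pairs are examples, and whether neighbours move together was not tested: *Dsc2* rose by 1.75, while *Dsc3*, 28.3 kb away, had a log2 fold change of -2.42 (adjusted p = 0.247).

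The promoters of the junction genes were searched on both strands for sequences of known regulators of epithelial genes. The RefSeq promoters (GRCm38.p6, 250 bases before to 50 after each start) matched 51 of the 86 genes. The letters CAGGTG are the E-box that the repressors of the Snail and Zeb families bind. They stood in promoters of 10 of the 15 matched genes that rose, 3 of the 8 that fell and 5 of the 28 others, and in 22.6% of all 27025 genes. Examples lying wholly before a RefSeq start, picked after the values were seen, are shown to place the motif. Those of *Cldn7*, *Cldn6* and *Pkp4* lie inside the gene as annotated in GENCODE M21, before another start. The motif is in capitals and reads CACCTG where it is on the other strand. Each example is written 5′ to 3′ on the gene's strand, and the last is from a gene that fell.
Cldn7 (chr11:69965352-69965381, plus strand): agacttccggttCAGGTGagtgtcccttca
Cldn6 (chr17:23679260-23679289, plus strand): gggaaacgcacgCAGGTGgctatcgccgca
Epcam (chr17:87635780-87635809, plus strand): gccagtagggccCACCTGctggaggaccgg
Tjp3 (chr10:81291672-81291701, minus strand): gtcacaaggggtCAGGTGtacagacaggga
Pkp4 (chr2:59161810-59161839, plus strand): cgccgcgataggCAGGTGtgtgcgtccaac
AACCNGTT, bound by grainyhead-like factors, stood in 2 of the 51 (*Cldn5* and *Gjb6*) and in 2.35% of all genes, and it did not overlap the E-box in any matched promoter. Shared letters in a window are not binding sites. Of 15 regulators of junction genes, 7 rose and none fell in cystic kidneys (against 16.9% and 14.2% of all genes), among them *Elf3* (log2 fold change 1.37), *Twist1* (0.77), *Grhl2* (0.76), *Snai1* (0.49), *Tfcp2l1* (0.45) and *Ehf* (0.30). *Zeb1* (-0.16, SE 0.12) and *Zeb2* (0.13, SE 0.10) did not pass.

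Of the 8 tight junction scaffold and membrane genes, 7 rose and none fell (87.5% passed, against 31.1% of all genes). All 8 had a mean log2CPM of 1 or more, at which level 48.7% of all genes passed. *Tjp3* and *Tjp1*, scaffolds that tie claudins to actin, rose: *Tjp3* by 0.67 (SE 0.12, adjusted p = 0.000208) and *Tjp1* by 0.30 (SE 0.10, adjusted p = 0.026) on the log2 scale. The *Tjp1* call was lost without mouse 20 (0.21, adjusted p = 0.167), 25 (0.0685) or 26 (0.0711) and with *Xist* as a covariate (0.0564). *Marveld2*, tricellulin, which seals the corners where 3 cells meet, rose by 0.45 (adjusted p = 0.0015), *Marveld3* by 0.37 (0.0125), *F11r*, a junctional adhesion molecule, by 0.35 (0.00301) and *Epcam*, an epithelial adhesion molecule that stabilises claudins, by 0.35 (0.0131). *Epcam* was no longer called without mouse 21 (adjusted p = 0.114) or 26 (0.0618). *Ocln*, occludin, was at 49.0 to 57.5 CPM in noncystic and 49.0 to 60.7 CPM in cystic mice (log2 fold change 0.02, SE 0.09), with a sign that depended on the scaling. Part of the exons of *Tjp3*, *Cldn3*, *Dsg2*, *Dsp* and *Gja5*, overlap another gene, and the strand setting of the counting was not given, so their values carry that uncertainty.

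Among 30 further tight junction genes tested (adaptors, polarity proteins and other membrane proteins), 15 rose and 6 fell. Over all genes tested 16.9% rose and 14.2% fell. *Cxadr*, a virus receptor of the junction, rose by 0.97 and *Lsr*, an organiser of tricellular junctions, by 0.84 on the log2 scale, and *Cgn*, cingulin, by 0.78. Its paralogue *Cgnl1* fell by 0.52 (SE 0.09, adjusted p = 0.000273), from 405.2 to 476.9 CPM to between 273.9 and 335.3 CPM.

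Of the 20 cadherins tested, 6 rose and 1 fell (35% passed, near the 31.1% of all genes). *Cdh3*, P-cadherin, was at 18.3, 17.3 and 19.4 CPM in noncystic and 91.9, 99.3 and 112.7 CPM in cystic mice. It rose 5.52-fold (log2 fold change 2.46, SE 0.13, adjusted p = 4.79e-09), with every cystic mouse over 4 times any noncystic mouse. *Cdh1*, E-cadherin of epithelia, was at 316.6, 336.7 and 331.5 CPM and at 562.5, 575.7 and 547.7 CPM, a 1.71-fold rise (0.78, SE 0.10, adjusted p = 1.04e-05). Within a mouse, the level of *Cdh3* was 0.0537 to 0.0610 times that of *Cdh1* in noncystic and 0.170 to 0.215 times in cystic mice. *Cdh16*, the kidney-specific cadherin whose promoter drives Cre here, was by far the most abundant cadherin per kb, with 75.8% ± 0.469 of the family's sum in noncystic and 67.1% ± 0.998 in cystic mice. Its own level was 1287, 1361 and 1432 CPM in noncystic and 1531, 1482 and 1455 CPM in cystic mice. The groups did not overlap, but the difference did not pass (log2 fold change 0.13, SE 0.09, adjusted p = 0.284); with library totals it did (0.29, adjusted p = 0.00699).

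*Cdh11*, a cadherin of mesenchymal cells, rose 2.10-fold, from 61.8 to 68.1 CPM to between 118.5 and 157.8 CPM (log2 fold change 1.07, SE 0.11, adjusted p = 1.48e-06). Beside it, 4 of 7 fibroblast markers rose and 2 fell, and their sum went from between 1880 and 2050 CPM to between 2890 and 4320 CPM. Mouse 26 had the highest sum and the highest *Cdh11* of its group. In cystic *Pkd2* Δ17/Δ17 mice the order was otherwise: mouse 28 had the highest *Cdh11* (178.5 CPM) and the lowest fibroblast sum (2630 CPM). The part of fibroblasts in the *Cdh11* difference was not tested. *Cdh24* rose 2.56-fold (1.36, SE 0.20, adjusted p = 4.45e-05) at 62 to 91 counts in noncystic and 170 to 277 in cystic mice. *Cdh15*, M-cadherin of muscle, also passed, on 1 count in all noncystic and 32 in all cystic mice, a ratio of 26.8 with a 95% exact counting interval of 4.47 to 1090. *Cdh18* passed on 0 counts against 2, 5 and 3, too few for a fold, and was not called in 8 of the alternatives at the same threshold. *Cdh2*, N-cadherin, which the proximal tubule uses, fell by 0.52 (SE 0.15, adjusted p = 0.0108), though not with library totals, by edgeR (-0.36, adjusted p = 0.0636) or limma-trend (0.0557), or without mouse 25 (0.0507). *Cdh6*, another cadherin of the proximal tubule, had a log2 fold change of -0.17 (SE 0.12), and *Cdh5*, of endothelium, of -0.04 (SE 0.12), with a sign that turned under library totals (0.12). Of 21 further adherens junction genes tested, 9 rose and 2 fell, against 16.9% and 14.2% of all genes. *Vcl*, vinculin, rose by 1.22, *Nectin2* by 0.78 and *Ctnna1*, alpha-catenin, by 0.54, while *Ctnnb1*, beta-catenin, had 0.23 (SE 0.09, adjusted p = 0.0812). A larger relative difference was that of *Ctnnd2*, at 0.912 to 0.967 CPM in noncystic and 13.5 to 18.6 CPM in cystic mice. The brush border cadherins *Cdhr2* and *Cdhr5*, which link microvilli of the proximal tubule, fell by 0.68 and 0.79.

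**Figure D3:**
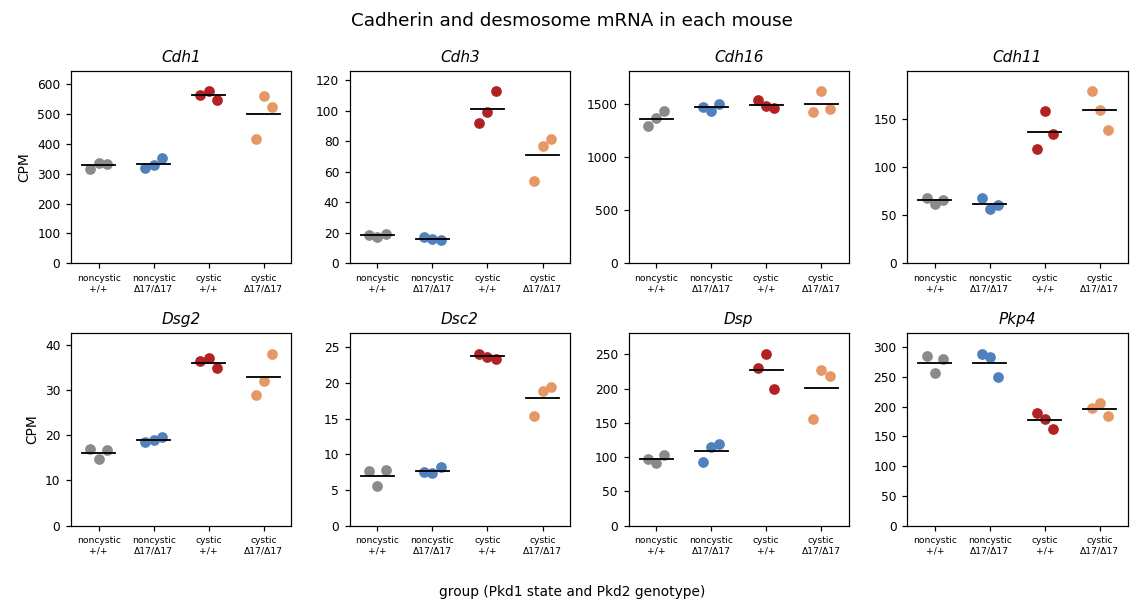
CPM (linear axis from 0) of 4 cadherins and 4 desmosome genes in each of the 12 mice, by group; points are mice and bars are means of 3. *Cdh3* rises 5.52-fold and *Cdh1* 1.71-fold in cystic *Pkd2* +/+ mice, *Cdh16* stays between 1287 and 1615 CPM in all mice, and *Pkp4* falls while *Dsg2*, *Dsc2* and *Dsp* rise.

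Of the 10 desmosome genes tested, 6 rose and 1 fell (70% passed, against 31.1% of all genes). The desmosomal cadherins *Dsc2* and *Dsg2* rose 3.37-fold and 2.23-fold: *Dsc2* was at 7.69, 5.59 and 7.78 CPM in noncystic and 24.1, 23.7 and 23.4 CPM in cystic mice (log2 fold change 1.75, SE 0.14, adjusted p = 1.33e-07). *Dsg2* was at 16.98, 14.8 and 16.7 CPM and at 36.3, 37.1 and 34.8 CPM (1.16, SE 0.11, adjusted p = 4.69e-07). Both cadherins were close to equal among the cystic mice and clear of every noncystic mouse. Desmoplakin, *Dsp*, which binds the keratin filaments, rose 2.33-fold from 91.8 to 103.6 CPM to between 200 and 250.9 CPM (1.22, SE 0.13, adjusted p = 2.4e-06). Of the armadillo proteins that join them, *Pkp3* rose by 0.72 (SE 0.08, adjusted p = 4.49e-06), *Jup*, plakoglobin, by 0.50 (SE 0.09, adjusted p = 0.000236) and *Pkp2* by 0.39 (SE 0.08, adjusted p = 0.00119). *Pkp4*, a relative found mainly at adherens junctions, fell 1.55-fold, from 285.1, 256.7 and 280.5 CPM to 189.4, 179.0 and 161.9 CPM (-0.63, SE 0.09, adjusted p = 2.53e-05). The other desmosomal cadherins of skin, such as *Dsg3* and *Dsc3*, had at most 6 counts in any mouse. Of 9 desmosome partners, 7 rose and none fell (against 16.9% and 14.2% of all genes), with a median log2 fold change of 1.15: the simple-epithelium keratins *Krt18* (2.30), *Krt19* (1.54), *Krt8* (1.46) and *Krt7* (1.15), the cytolinkers *Ppl* (1.203) and *Evpl* (0.72), and *Vim* (0.86), vimentin, a filament of mesenchymal cells.

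Of the 16 connexins tested, 2 rose and 3 fell (31.2% passed, near the 31.1% of all genes), and the most abundant did not pass. *Gjb1*, the connexin of the proximal tubule and liver, held 38.6% ± 6.98 of the connexin sum per kb in noncystic and 37.0% ± 3.04 in cystic mice (log2 fold change -0.20, SE 0.12, adjusted p = 0.245). *Gjb2*, which follows the same segment, fell 1.69-fold, from 25.1, 21.4 and 22.4 CPM to 15.5, 13.7 and 11.6 CPM (-0.76, SE 0.13, adjusted p = 0.000226). *Gja3* fell by 0.98 (SE 0.28, adjusted p = 0.0132) and *Gja4*, of arterial endothelium, by 0.42 (SE 0.15, adjusted p = 0.0425), with overlapping groups for *Gja4*. *Gja5*, also arterial, had -0.37 (SE 0.17, adjusted p = 0.104) and passed only with *Xist* as a covariate (0.0286) or without mouse 21 (0.0217). *Gjc1*, a connexin of mural and interstitial cells, rose 1.61-fold, from 17.6, 22.4 and 15.8 CPM to 29.1, 30.2 and 30.5 CPM (0.69, SE 0.12, adjusted p = 0.000208). Of the 7 mural cell markers 3 rose and 1 fell, with sums of 518 to 707 and 645 to 989 CPM, and their part in the *Gjc1* difference was not tested. *Gja1*, the widespread connexin of heart and many epithelia, had -0.02 (SE 0.11), with a sign that turned under library totals (0.14). The pannexin *Panx1*, which forms channels to the outside of the cell, rose by 1.37 (SE 0.14, adjusted p = 1.13e-06).

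The same question was asked in mice that lack the *Pkd2* motif, where cystic and noncystic Δ17/Δ17 kidneys share no mouse with the comparison above. Here 32 of the 71 genes (45.1%) passed, 23 higher and 9 lower. Of all genes 23% passed, 12.8% higher and 10.2% lower. The ranges were separate for 35 of the 71 genes, against 37.9% of all genes, and 27 of the 48 genes with a mean log2CPM of 1 or more passed, against 37.7% of all genes at that level. Without mouse 30, which stood apart in adrenal markers, 27 of 72 genes passed, as did 18% of all genes. Leaving out any 1 mouse of the compared groups gave 26 to 29, so this drop was not particular to mouse 30. Of the 32, 26 had also passed in *Pkd2* +/+ kidneys, which is 70.3% of the 37 and 81.2% of the 32, and all 26 moved the same way. Over all genes the shared calls were 63% and 85% of the same lists, and 4827 of 4829 moved the same way, so the junction genes lie near the background. The log2 fold changes had the same sign in 58 of the 71 junction genes and in 18495 of all 24642 genes. Pearson r across genes, which are not independent replicates, was 0.685 and 0.418. *Cdh3* rose by 2.15 (SE 0.13, adjusted p = 4.64e-08), *Cldn9* by 1.99, *Cldn6* by 1.88, *Cldn3* by 1.38, *Cldn4* by 1.22 and *Dsc2* by 1.22. *Cldn2* fell by 0.86, *Cldn15* by 0.72 and *Cldn10* by 0.52 (SE 0.10, adjusted p = 0.00087). The 11 genes that passed in *Pkd2* +/+ kidneys alone were *Cldn5*, *Cldn23*, *Cdh2*, *Cdh15*, *Cdh18*, *Pkp2*, *F11r*, *Tjp1*, *Tjp3*, *Marveld3* and *Gja4*. The 6 that passed in *Pkd2* Δ17/Δ17 kidneys alone included *Ocln* (0.28), *Gjb6* (-1.18), *Cdh13* (-0.56), *Cdh22* (2.21) and *Cdh23* (-1.35). Passing in only 1 genotype does not show that the effects differ, which the interaction below tested.

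**Figure D4:**
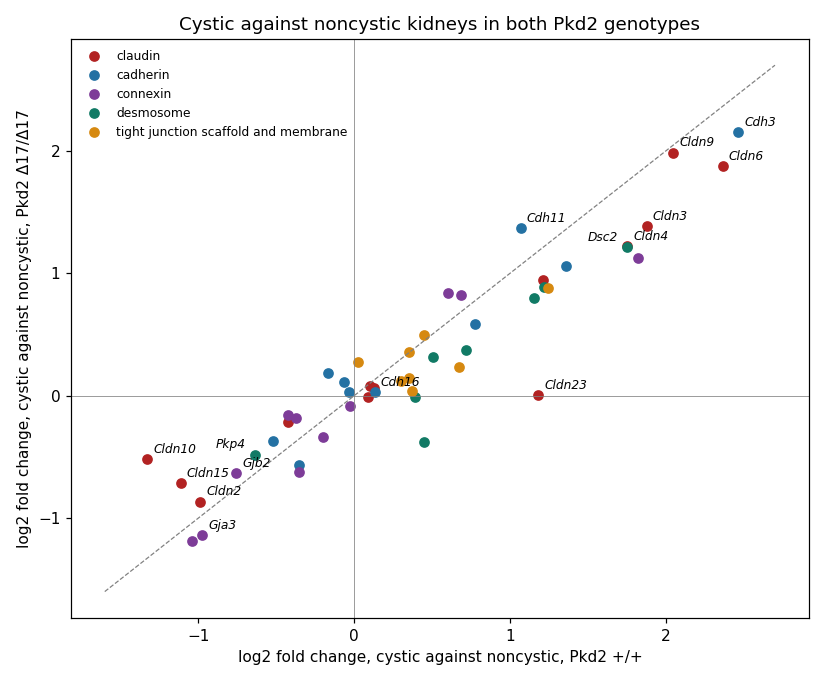
Log2 fold changes between cystic and noncystic kidneys in *Pkd2* +/+ mice (horizontal) and *Pkd2* Δ17/Δ17 mice (vertical) for the 50 junction genes with a standard error under 0.4 in *Pkd2* +/+ mice, coloured by family; the dashed line marks equal change. *Cdh3*, *Cldn6* and *Cldn9* lie at the top right, and *Cldn10* (-1.33 and -0.52) and *Cldn23* (1.18 and 0.00) lie off the line.

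The effect of the *Pkd2* motif deletion was then compared within cystic kidneys. It shares mice 25, 26 and 27 with the comparison of cystic and noncystic *Pkd2* +/+ kidneys and mice 28, 29 and 30 with that in *Pkd2* Δ17/Δ17 kidneys. *Cldn10* was higher, and *Cldn3*, *Cldn7* and *Cdh3* were lower, in *Pkd2* Δ17/Δ17 kidneys: 4 of 71 genes (5.63%) passed, 1 higher and 3 lower. Of all genes 2.23% passed, 1.19% higher and 1.04% lower. All 4 are among the 48 genes with a mean log2CPM of 1 or more, at which level 3.78% of all genes passed. At an unadjusted p of 0.05, 15 of the 71 passed, against 14.3% of all genes, and the groups did not overlap in 18 of the 71, against 19% of all genes. *Cldn10* was at 80.5, 100.8 and 83.2 CPM in cystic *Pkd2* +/+ mice and at 150.1, 138.0 and 140.2 CPM in cystic *Pkd2* Δ17/Δ17 mice. The groups were clearly apart, with a 1.62-fold difference (log2 fold change 0.70, SE 0.10, adjusted p = 0.00216), and the cystic *Pkd2* Δ17/Δ17 mice stayed below all noncystic mice, which lay at 182.3 CPM or more. *Cldn10* passed under every alternative run, with adjusted p between 1.76e-11 and 0.0196.

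*Cldn3* was at 76.3, 91.7 and 99.9 CPM in cystic *Pkd2* +/+ mice and at 55.2, 68.9 and 65.6 CPM in cystic *Pkd2* Δ17/Δ17 mice (log2 fold change -0.50, SE 0.11, adjusted p = 0.0228). *Cdh3* was at 91.9, 99.3 and 112.7 CPM and at 53.8, 76.9 and 81.5 CPM (-0.52, SE 0.12, adjusted p = 0.0372). *Cldn7* was at 124.0, 141.8 and 140.3 CPM and at 92.9, 108.7 and 110.4 CPM (-0.38, SE 0.10, adjusted p = 0.0482). For all 3 genes the groups did not overlap, and mouse 28 was the lowest. These calls were less firm than that of *Cldn10*: all 3 were lost in a fit of the cystic groups only and without mouse 26, 27, 28 or 29. Fewer of all genes passed in these fits as well. The share was 2.23% in the main fit and 0.683% in the fit of the cystic groups only. It was 1.62%, 0.527%, 0.515% and 0.479% without mouse 26, 27, 28 and 29. Without mouse 26 *Cldn10* and *Cldn15* (0.60, adjusted p = 0.0172) were called. The *Cldn7* call was also lost with library totals, by edgeR and by limma-trend. Over the alternatives their adjusted p ran from 2.05e-05 to 0.14 for *Cldn3*, from 6.47e-06 to 0.178 for *Cdh3* and from 0.000986 to 0.249 for *Cldn7*. *Cldn4*, at 281.8, 401.3 and 351.9 CPM and at 188.2, 230.9 and 275.2 CPM, had a log2 fold change of -0.58 (SE 0.15) and did not pass (adjusted p = 0.0576). It did pass by DESeq2 (adjusted p = 0.00808), with *Xist* as a covariate (0.0105) and with no filter on low counts (6.99e-08). Without mouse 25 (0.0108) or mouse 30 (0.0205) it also passed, and under the other alternatives it did not.

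No desmosome gene, connexin or tight junction scaffold or membrane gene passed. Among those with the smallest p-values were *F11r* (-0.29, SE 0.08, adjusted p = 0.0817), *Pkp2* (-0.25, SE 0.08, adjusted p = 0.131) and *Dsc2* (-0.41, SE 0.13, adjusted p = 0.132). *F11r* did pass by DESeq2 (adjusted p = 0.0177), with no filter on low counts (0.0365) and with *Xist* as a covariate (0.0449). *Dsc2* did so by DESeq2 (0.0453). Of the desmosome partners 3 of 9 were lower, *Krt18* (-0.71), *Krt7* (-0.63) and *Vim* (-0.35), and of the tight junction partners 1 of 30 was higher, *Cgnl1* (0.45, adjusted p = 0.0184). Over all genes 1.04% were lower and 1.19% higher. No adherens junction partner and none of the 15 regulators passed. Beside the *Cldn10* difference, 2 of 5 thick ascending limb markers were higher, *Slc12a1* by 0.93 and *Egf* by 1.122, and 3 of 9 proximal tubule markers, *Lrp2* by 0.64, *Cubn* by 0.59 and *Aqp1* by 0.68. The sum of the thick ascending limb markers was 1930 to 2560 CPM in cystic *Pkd2* +/+ and 3730 to 3950 CPM in cystic *Pkd2* Δ17/Δ17 mice, and that of the proximal tubule markers 2920 to 4080 and 3840 to 5220 CPM. None of the 6 principal cell markers passed, and 3 of 6 macrophage markers were lower, with sums of 283 to 392 and 215 to 271 CPM. The part of these cell types in the differences was not tested. In shares of the claudin sum, *Cldn10* was at 9.42% ± 0.638 and *Cldn4* at 21.7% ± 3.56 in cystic *Pkd2* Δ17/Δ17 mice, between the cystic *Pkd2* +/+ and both noncystic groups.

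In noncystic kidneys, which share all 6 mice with the cystic comparisons above, the motif deletion changed no junction gene past the threshold by edgeR's quasi-likelihood test. At an unadjusted p of 0.05 3 of 71 passed, *Cldn12* (0.20), *Dsg2* (0.23) and *Cdh23* (1.06), against 6.31% of all genes. Over all genes tested 1 passed, which is 0.00406%, or 0.0073% of genes with a mean log2CPM of 1 or more. The count was also 0 by limma-trend with library totals and by DESeq2. *Cldn10* was at 229.1, 231.0 and 202.8 CPM in *Pkd2* +/+ and at 225.0, 182.3 and 204.9 CPM in *Pkd2* Δ17/Δ17 noncystic mice, which overlap. *Cldn3* was at 22.4 to 26.9 and 23.2 to 25.5 CPM, which also overlap. *Cdh3* was at 17.3 to 19.4 and 15.02 to 16.95 CPM, separate and lower with the deletion as in cystic kidneys, but it did not pass. The ranges were separate for 8 of the 71 genes, against 10.8% of all genes.

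**Figure D5:**
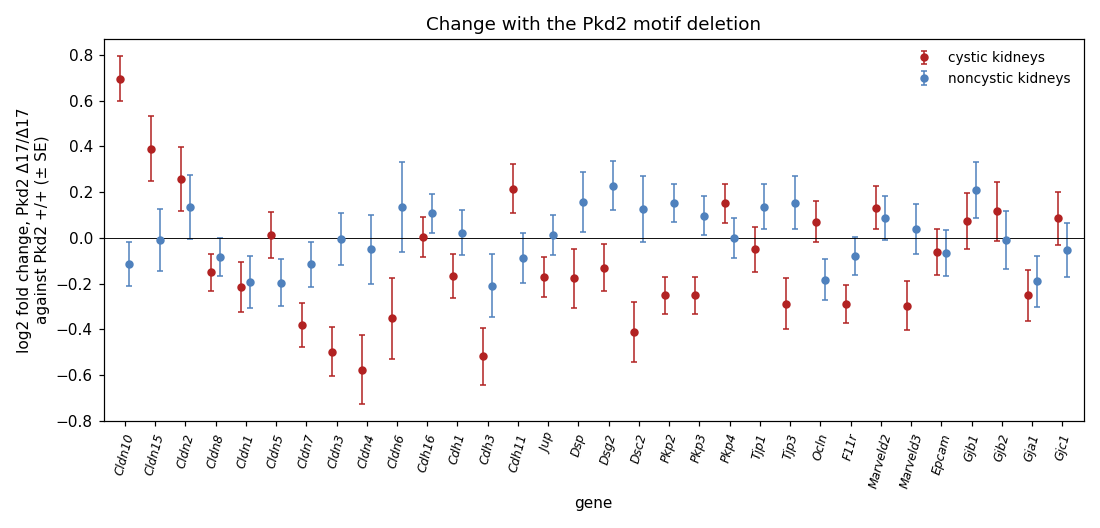
Log2 fold change between *Pkd2* Δ17/Δ17 and *Pkd2* +/+ mice for 32 junction genes, in cystic (red) and noncystic (blue) kidneys; bars are ± 1 SE of the fit. *Cldn10* stands at 0.70 in cystic kidneys, *Cldn3*, *Cldn4* and *Cdh3* at -0.50, -0.58 and -0.52, and the noncystic values lie within 0.23 of 0.

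Whether the deletion acted differently in cystic and noncystic kidneys was tested as an interaction. No junction gene passed by edgeR's quasi-likelihood test, where 3 of all genes did (0.0122%, of which 0.00812% higher and 0.00406% lower, and 0.0219% of genes with a mean log2CPM of 1 or more), while 12 of 71 passed an unadjusted p of 0.05, against 8.33% of all genes. *Cldn10* came nearest, with an interaction of 0.81 on the log2 scale (SE 0.14, adjusted p = 0.0552), from a change of -0.11 in noncystic and 0.70 in cystic kidneys. It passed with library totals, by edgeR (adjusted p = 0.041) and by limma-trend (0.0337), and by DESeq2 (0.000127), and its adjusted p ran from 2.81e-07 to 0.206 over all alternatives. The next by unadjusted p were *Pkp2* (-0.40, adjusted p = 0.311), *Cldn3* (-0.50, adjusted p = 0.371) and *Pkp3* (-0.35, adjusted p = 0.406). All 3 had a value below 0 in cystic kidneys. For the 48 well-measured genes the median standard error of the deletion effect was 0.114 in cystic and 0.117 in noncystic kidneys, with 3 mice a group. Effects well above that size also missed the threshold. By edgeR's quasi-likelihood test *Pkd2* itself did so in noncystic kidneys (0.41, SE 0.08, adjusted p = 0.771). A gene that did not pass is therefore not shown to be unchanged.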

How the data were processed

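Whole kidney RNA was extracted with a miRNeasy kit and sequenced as libraries made by Genewiz. Per the labels and the submitters' processing notes, the authors trimmed reads with Trim Galore 0.6.3 and aligned them to GRCm38 with STAR 2.5.3a, and they deposited raw whole-number counts per gene, without normalization; the strand setting is not given in the sources used here. Multi-mapping between paralogues was not examined.

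Counts were analysed with edgeR 4.0.16 (R 4.3.3): genes were kept at a mean log2CPM of -3 or more (prior count 2), scaled by TMM, and all 12 mice were fitted together with a mean for each group (residual degrees of freedom 8), and tested by quasi-likelihood, with Benjamini-Hochberg adjustment over 24642 genes at 0.05. "Rose", "fell", "passed" and "called" refer to that threshold. Spread is between mice of 1 group, whose litters and sexes the labels do not give. *Xist*, used as a covariate in place of sex, was at 431 CPM or more in mice 19, 22, 23, 25, 26 and 28. In the other mice it was at 7.74 CPM or less, so high and low *Xist* were unevenly spread over the groups. limma-trend (limma 3.58.1), run with library totals only, and DESeq2 1.42.0 were alternatives, as were other scalings and filters, *Xist* as a covariate and leaving out each mouse. Scripts were tested on simulated data. Level per kb used the summed exon length of GENCODE M21. Pairs of mice in a group differed by more than sampling noise.

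Genes were named if they passed with at least 1.5-fold in cystic against noncystic *Pkd2* +/+ kidneys, if they passed for the deletion or the interaction, or if they stood in a list of 30 common junction genes; others are named to complete a count and were chosen after their values were seen. The genes, partner lists and marker lists were chosen with earlier results of these data known. The intervals of counts cover counting error only. The values of some of these genes are not reported here.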

Additional observations from a re-analysis of the deposited data

How the results depend on the processing

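The number of junction genes called between cystic and noncystic kidneys stayed within 1.5 times the reported count under every alternative run, at 29 to 39 for *Pkd2* +/+ and 24 to 34 for *Pkd2* Δ17/Δ17 mice. Library totals in place of TMM moved the median log2 fold change of all genes in *Pkd2* +/+ kidneys from 0.02 to 0.18, with 32 genes higher and 7 lower.

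For the deletion in cystic kidneys, 4 genes were called. The count was 1 (*Cldn10*) at an adjusted p under 0.01, 7 by DESeq2, 9 with no filter on low counts and 6 with *Xist* as a covariate. Of all genes 2.23% passed in the main fit, 6.25% by DESeq2, 4.94% with no filter and 2.3% with *Xist*. The count of junction genes was 1 in a fit of the compared groups only and 1 to 5 when a mouse was left out (2 without mouse 26, and 1 each without mouse 27, 28 or 29). The share of all genes fell too, to 0.683% with the compared groups only and 1.62% without mouse 26. It was 0.527%, 0.515% and 0.479% without mouse 27, 28 and 29, and 3.46% and 3.09% without mouse 25 and 30. In noncystic kidneys 1 gene (*Cldn11*) was called with no filter, where 0.374% of all genes passed. For the interaction, *Cldn10* alone was called with library totals by edgeR and by limma-trend, by DESeq2 and with at least 10 counts in every mouse (1 each), and 4 genes with no filter. In the same order, 0.0325%, 0.0365%, 0.91%, 0.0813% and 1.71% of all genes passed. Leaving out a mouse gave 0 to 1 (*Cldn10* without mouse 22, 25, 26 or 30), with at most 0.245% of all genes passing.

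Of 716 values of single genes under the alternatives, 651 kept their direction and side of the threshold, 46 were no longer past it, 6 newly passed and 13 changed sign. Those 13 belong to genes that did not pass: *Cdh5* (with library totals 0.13 by limma-trend and 0.12 by edgeR, leaving out a mouse -0.145 to 0.029), *Gja1* (0.13, 0.14, and -0.102 to 0.047), *Ocln* (DESeq2 -0.004, DESeq2 size factors -0.004, and -0.081 to 0.08) and *Cldn1* (leaving out a mouse -0.018 to 0.156). The cause was not tested. No paired analysis was possible because the groups share no mouse number.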

Other observations

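*Cldn11*, a claudin best known from testis and myelin, was chosen here after its values were seen, because it stood apart in single mice. It was at 15.6 CPM in mouse 20, 29.2 CPM in mouse 24 and 10.2 CPM in mouse 26, and at 2.31 to 6.06 CPM in the other 9. The 8 urothelium markers summed to 181, 108 and 159 CPM in these mice and to between 29.3 and 144 CPM in the others, so the sums overlap, and their part in the *Cldn11* level was not tested.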
